A study of Homo sapiens with 8 samples.

Results

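The eIF4F cap-binding complex and the 4E-BPs that restrain it were examined in HCT116, a human colorectal cancer cell line. The members were 10 genes taken by gene name, EIF4G1, EIF4G2, EIF4G3, EIF4E, EIF4A1, EIF4A2, EIF4EBP1, EIF4EBP2, EIF4B and EIF4H, out of 33711 genes listed. They held 176 of the 134605 listed transcripts, and 92 of these 176 reached a mean of 1 FPKM (fragments scaled to transcript length and to how many fragments of the library were mapped) over the 4 libraries and were tested. Cells were transfected with siRNA against YTHDF3, a cytoplasmic reader of the RNA mark N6-methyladenosine (m6A), or with a negative control siRNA (NC). The series held 8 libraries in 4 groups of 2, which were input RNA and m6A-precipitated RNA of si-YTHDF3 cells and of NC cells, and the values below come from the 2 si-YTHDF3 input libraries and the 2 NC input libraries. The labels do not say that replicates came from separate cultures, so each p-value rests on how far these libraries lie apart, which may be technical variation. The knockdown was by transient transfection of 1 cell line, and the labels do not say which siRNA sequence each si-YTHDF3 library received. The study lists 2 siRNAs named si-YTHDF3-1 and si-YTHDF3-2, and the titles of the 2 si-YTHDF3 input libraries open with these names. The libraries may therefore carry different siRNAs, and a spread between them cannot be told apart from a difference of siRNA.

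Cap-dependent translation starts when eIF4E binds the cap at the 5′ end of an mRNA. eIF4E joins the scaffold eIF4G and the RNA helicase eIF4A in the eIF4F complex, which unwinds the 5′ leader and brings in the small ribosomal subunit. The 4E-BPs compete with eIF4G for eIF4E and lose their grip when the kinase mTORC1 phosphorylates them, so that they act as a brake on this step when growth signals are low. YTHDF3 is itself known as a reader that acts on translation and decay of m6A-modified RNA.

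YTHDF3 had 2.53 and 3.25 FPKM in the si-YTHDF3 libraries, against 25.9 and 11.96 FPKM in the NC libraries. Both knockdown libraries were below both NC libraries, and the log2 fold change, on log2(FPKM + 1) values, was -2.27, with an adjusted p of 0.135 (limma, Benjamini-Hochberg over the 14457 genes tested). All FPKM of a library summed to between 371121 and 383303. The number of reads behind them is unknown. Of 10 colorectal epithelial markers, 6 reached 1 FPKM, with summed levels of 1689 and 1898 FPKM in si-YTHDF3 libraries and of 1795 and 1619 FPKM in NC libraries. KRT20, VIL1 and LGALS4 were at or near 0. Of 13 fibroblast, leukocyte and endothelial markers, 2 reached 1 FPKM, COL1A1 and CD68. The summed fibroblast markers were 11.9 and 13.72 FPKM in si-YTHDF3 libraries and 15.79 and 11.99 FPKM in NC libraries.

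No member gene passed the adjusted threshold of 0.05. EIF4G1, EIF4B and EIF4G3 had higher levels in both si-YTHDF3 libraries than in both NC libraries, EIF4G2 and EIF4EBP2 had lower levels in both, and the libraries of EIF4E, EIF4A1, EIF4A2, EIF4EBP1 and EIF4H overlapped between the groups. Thus 5 of 10 members did not overlap, where 49.0% of all tested genes did not overlap (25.3% higher and 23.7% lower), so the members' share was near the background. At an unadjusted p under 0.05 there was 1 member, EIF4EBP2, lower, against 14.8% of all genes in either direction and 6.53% in the lower direction. The adjusted threshold was passed by 0.0277% of all genes in the higher direction and 0.0% in the lower. With a 2-fold limit added to the unadjusted p there was no member gene, against 0.436% of all genes higher and 0.353% lower. The members' median log2 fold change was 0.05, against 0.01 over all genes tested. The larger difference lay within EIF4G1, whose level was divided among different transcripts in the groups, as described below. In these bulk samples fewer cells of a type and less RNA per cell cannot be told apart.

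**Figure D1:**
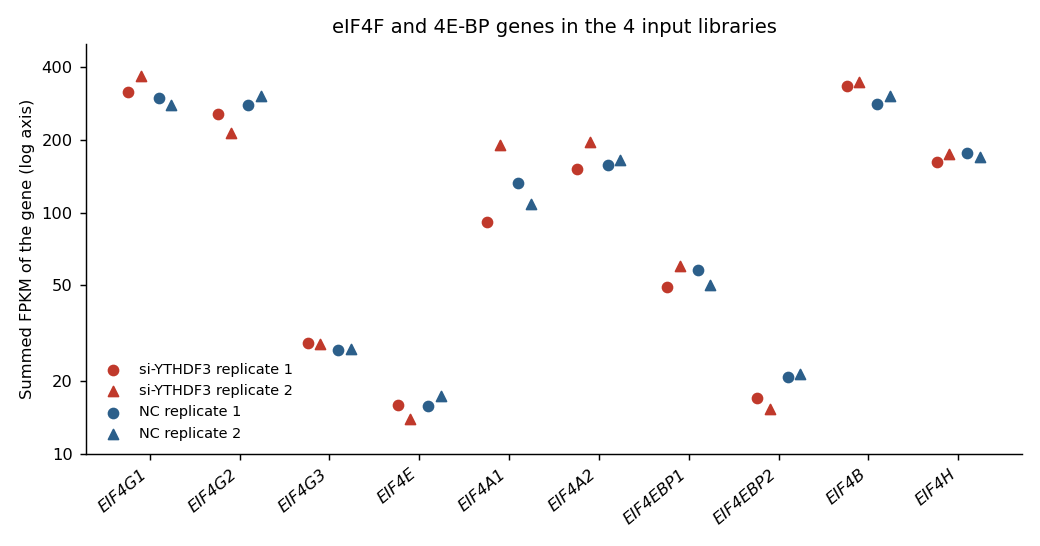
Summed FPKM of each gene (vertical log axis) in the 2 si-YTHDF3 input libraries (red) and the 2 NC input libraries (blue), with circles for replicate 1 and triangles for replicate 2. EIF4G1, EIF4G2 and EIF4B lie above 214 FPKM in all 4 libraries, EIF4E and EIF4EBP2 lie near the bottom, and EIF4A1 has the widest spread, between 91.65 and 189.7 FPKM within si-YTHDF3.

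FPKM are per length, so levels can be ordered between genes. Close places are uncertain, because pseudogenes and other genes that can share reads are not in the sums. Per library these were at 52.36 to 60.65 FPKM for EIF4H, 40.67 to 56.76 for EIF4B and 15.92 to 65.75 for EIF4A1. In si-YTHDF3 libraries the order of the mean levels was EIF4G1, EIF4B, EIF4G2, EIF4A2, EIF4H, EIF4A1, EIF4EBP1, EIF4G3, EIF4EBP2 and EIF4E. In that order EIF4G1 and EIF4B overlapped, as did EIF4A2 with EIF4H, EIF4H with EIF4A1, and EIF4EBP2 with EIF4E. In NC libraries the order was EIF4B, EIF4G2, EIF4G1, EIF4H, EIF4A2, EIF4A1, EIF4EBP1, EIF4G3, EIF4EBP2 and EIF4E, and only EIF4B with EIF4G2 and EIF4G2 with EIF4G1 overlapped among neighbours. EIF4E, the cap-binding subunit, had the lowest summed FPKM of the 10 in both groups, with a mean of 14.9 ± 1.47 FPKM in si-YTHDF3 cells and 16.6 ± 1.04 FPKM in NC cells (SD, n = 2 each). Its place is uncertain, because EIF4E pseudogenes that can share its reads, at 29.52 to 36.65 FPKM per library, are not in this sum. With transcripts weighted by length, EIF4E averaged 25.5 in si-YTHDF3 and 29.9 in NC libraries. EIF4EBP2 then averaged 16.2 in si-YTHDF3 and 21.0 in NC libraries. Each weighted value was divided by the mean length of the gene's own listed transcripts. Weighted values therefore compare libraries within a gene and cannot order EIF4E and EIF4EBP2.

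EIF4G1 encodes the main scaffold of eIF4F (GRCh38, chr3:184314495-184335358, plus strand, 37 listed transcripts). Its summed level was 315.3 and 367.8 FPKM in si-YTHDF3 libraries, against 297.5 and 280.2 FPKM in NC libraries. Both knockdown libraries were above both NC libraries. The log2 fold change of the sum was 0.24 ± 0.12 (SE), with a 95% interval of -0.07 to 0.55 and an adjusted p of 0.42. Because the sum of FPKM counts a short transcript as much as a long one, the same values were also weighted by transcript length. The weighted level was 305.2 and 343.7 in si-YTHDF3 libraries and 331.0 and 311.2 in NC libraries, which overlap, and its log2 fold change was 0.01. The FPKM-weighted mean length of EIF4G1 transcripts was 2473 and 2388 bases in si-YTHDF3 libraries, against 2842 and 2837 bases in NC libraries.

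None of the 92 member transcripts tested passed the adjusted threshold, which 0.0% of all 38284 tested transcripts passed in either direction. At an unadjusted p under 0.05 there were 7 (2 higher and 5 lower), against 7.21% of all transcripts (3.98% higher and 3.22% lower), and 5 of the 7 were EIF4G1 transcripts. With a 2-fold limit added there were 1 higher and 3 lower, all 4 of EIF4G1, against 2.22% and 1.89% of all transcripts. The groups did not overlap for 40 of the 92 (19 higher and 21 lower), against 39.8% of all transcripts (20.6% higher and 19.1% lower).

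Among EIF4G1 transcripts, ENST00000444861 differed most between the groups. It is a protein-coding model of 13 exons and 2384 bases at chr3:184319199-184325021, and its level was 150.4 and 190.2 FPKM in si-YTHDF3 libraries, against 0.0105 and 0.0308 FPKM in NC libraries. It held 49.9% of the EIF4G1 level in the si-YTHDF3 group mean and under 1% in the NC group mean. The limma log2 fold change was 7.38 with a pseudocount of 1 FPKM and 10.46 with a pseudocount of 0.1, and the adjusted p over the 38284 transcripts tested was 0.0869. With this transcript left out, the rest of EIF4G1 was at 165.0 and 177.6 FPKM in si-YTHDF3 libraries and at 297.5 and 280.2 FPKM in NC libraries, so the order of the groups was the opposite of that of the gene sum.

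Transcript ENST00000411531 showed the reverse pattern. This model of 30 exons and 4683 bases at chr3:184316192-184334908 stood at 0 in both knockdown libraries, against 41.72 and 30.85 FPKM in NC libraries (adjusted p 0.0869). ENST00000457456, a model of 4 exons and 983 bases at chr3:184320461-184322027, inside the span of ENST00000444861, was at 65.1 and 76.05 FPKM in si-YTHDF3 libraries, against 117.3 and 118.6 FPKM in NC libraries. Its log2 fold change was -0.74 ± 0.13 (SE), with an unadjusted p of 0.0062 and an adjusted p of 0.371 (limma). Both of these transcripts were lower in both knockdown libraries.

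Other long EIF4G1 models differed between libraries of 1 group. The following models were chosen after their values were seen. ENST00000427845 was at 3.32 and 22.55 FPKM in si-YTHDF3 libraries and at 23.11 and 20.59 FPKM in NC libraries. ENST00000382330 was at 23.73 and 0 FPKM in si-YTHDF3 libraries and at 0 and 16.09 FPKM in NC libraries. ENST00000441154 was at 0 in both si-YTHDF3 libraries and at 35.2 and 0 FPKM in NC libraries. In each of the 3 the libraries of at least 1 group lay far apart. The 13 EIF4G1 models of at least 4000 bases, a limit also set after the values were seen, summed to 60.63 and 58.4 FPKM in si-YTHDF3 libraries and to 140.4 and 121.7 FPKM in NC libraries, a ratio of 0.454. The 24 shorter models summed to 254.7 and 309.4 FPKM in si-YTHDF3 libraries and to 157.1 and 158.5 FPKM in NC libraries, a ratio of 1.79. The groups overlapped in neither sum. ENST00000411531 covers the spans of ENST00000444861 and ENST00000457456 on the same strand, and how fragments were divided among overlapping models is not given in the sources used here, so the division between models is less certain than the sum. The part of this division in the result was not tested.

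**Figure D2:**
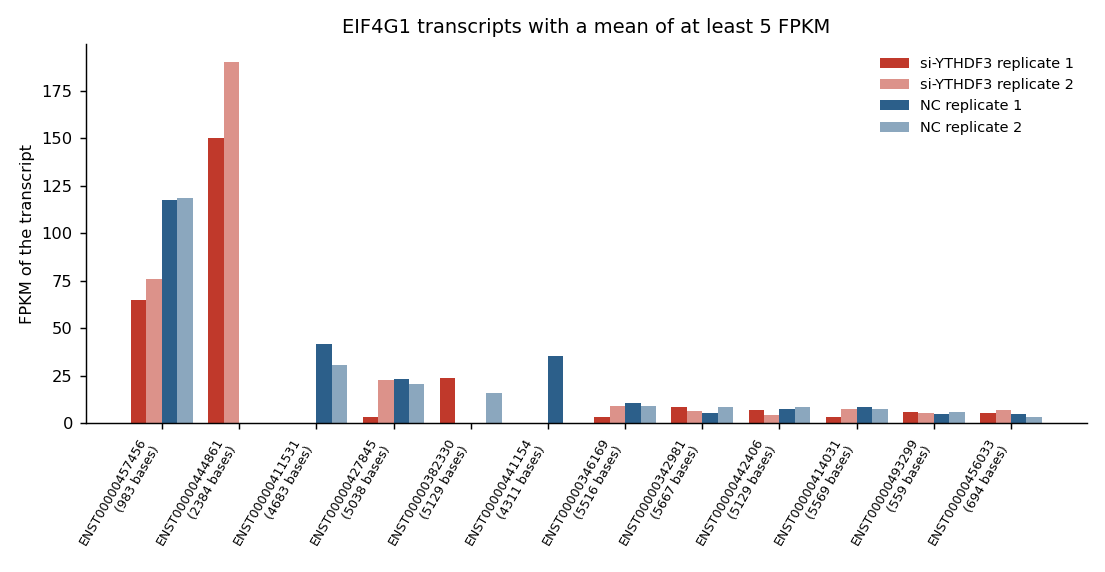
Level in FPKM (vertical axis) of the EIF4G1 transcripts that averaged 5 FPKM or more, with their lengths, in the 2 si-YTHDF3 libraries (red shades) and the 2 NC libraries (blue shades), 1 bar per library. ENST00000444861 stands at 150.4 and 190.2 FPKM in si-YTHDF3 alone, ENST00000411531 has bars in NC alone, and ENST00000457456 is lower in both si-YTHDF3 libraries.

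RefSeq lists 3 EIF4G1 starts, and the listed starts of ENST00000444861 and ENST00000411531 lay elsewhere. The windows of 20 bases before to 10 bases from each RefSeq start on are shown (GRCh38.p14, plus strand, with the first transcribed base in capitals).
EIF4G1 start at chr3:184314586-184314615: cgggatctgtgcggggagccGgaaatggtt
EIF4G1 start at chr3:184315144-184315173: cccgccctccgggccgacccTcacttgcct
EIF4G1 start at chr3:184320243-184320272: gctccacctactggatctggGccctgcccc
ENST00000427845 was listed as starting at 184315164, the first base of the second of these starts. ENST00000444861 started 1064 bases before the third and 4704 bases after the first listed EIF4G1 start, and ENST00000411531 started 1697 bases after that first start. Transcripts listed within 100 bases of the first RefSeq start summed to 40.03 and 13.56 FPKM in si-YTHDF3 libraries and to 23.85 and 46.84 FPKM in NC libraries. Those within 100 bases of the second start summed to 11.67 and 29.09 FPKM in si-YTHDF3 libraries and to 28.3 and 28.91 FPKM in NC libraries. The libraries overlapped between the groups at both starts. The 20 transcripts listed as starting elsewhere summed to 261.4 and 322.9 FPKM in si-YTHDF3 libraries and to 243.5 and 201.4 FPKM in NC libraries, and held most of the EIF4G1 level in every library. Among them, ENST00000346169 and ENST00000414031, listed from 184314495 and 184314502, fell just outside the 100-base limit of the first RefSeq start. ENST00000444861 and ENST00000457456 are partial models that end 10337 and 13331 bases before the gene end. Whether transcription begins at these listed starts was not tested.

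The isoform share distance sums up such shifts. It is the percentage of a gene's level that would have to move to other transcripts to turn 1 set of shares into the other, and it was taken between the group means and between the 2 libraries of each group. For EIF4G1 the distance between si-YTHDF3 and NC was 52.4%, against 13.6% between the si-YTHDF3 libraries and 18.4% between the NC libraries. Each of the 4 pairs of an si-YTHDF3 with an NC library was 51.55% to 59.63% apart. EIF4G1 was the only 1 of the 9 members with at least 2 transcripts whose distance between groups exceeded both distances within groups, where 14.2% of the 6471 genes with a mean of at least 10 FPKM did so. By the excess over the larger distance within a group, 34.0 percentage points, EIF4G1 ranked 48 of 6471. The 5 genes with the largest excess were USP46 (79.4 percentage points), FAM104A (74.1), NSRP1 (71.8), ADK (69.3) and MKRN1 (68.0). The median over the 6471 genes was 11.8% between groups, 13.4% between si-YTHDF3 libraries and 14.9% between NC libraries. Averaging 2 libraries lowers scatter, so a distance between group means is a measure unlike a distance between single libraries. These medians therefore do not show that the groups lay closer than the libraries of a group.

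**Figure D3:**
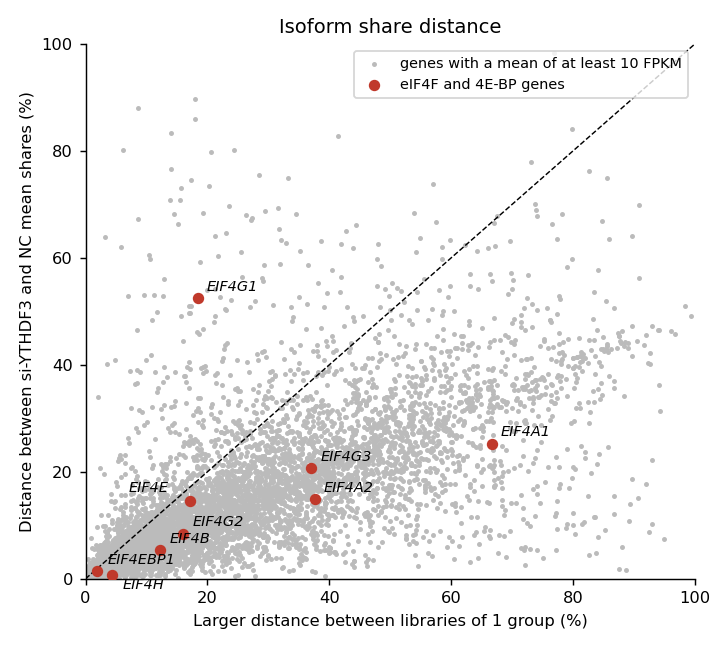
Isoform share distance in percent between the si-YTHDF3 and NC mean shares (vertical axis) against the larger distance between the 2 libraries of 1 group (horizontal axis), with 6471 genes in grey and 9 eIF4F and 4E-BP genes in red. EIF4G1, at 52.4% against 18.4%, lies above the dashed line of equal distances, and the other 8 members lie below it. The vertical axis compares group means and the horizontal axis single libraries, which are unlike measures.

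EIF4G2 encodes a relative of eIF4G1 that lacks the eIF4E-binding part and serves initiation that does not need eIF4E (chr11:10797050-10809110, minus strand). Its level was 256.4 and 214.4 FPKM in si-YTHDF3 libraries, against 280.1 and 305.5 FPKM in NC libraries. Both knockdown libraries were below both NC libraries, with a log2 fold change of -0.32 ± 0.13 (SE), a 95% interval of -0.65 to 0.02 and an adjusted p of 0.351. Its main transcript ENST00000396525, which held 55.01% of the level in si-YTHDF3 and 57.23% in NC, was at 139.7 and 119.3 FPKM in si-YTHDF3 libraries, against 153.8 and 181.3 FPKM in NC libraries. The longer ENST00000339995 was at 20 and 19.82 FPKM in si-YTHDF3 libraries, against 23.34 and 35.75 FPKM in NC libraries. Of the 16 EIF4G2 transcripts tested, 10 had a negative log2 fold change and none had an unadjusted p under 0.05 (limma). The isoform share distance of EIF4G2 between the groups was 8.45%, which lay between the 6.04% within si-YTHDF3 and the 16.0% within NC. The first value compares group means and the others single libraries.

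EIF4G3, the second canonical scaffold, was far less abundant than EIF4G1 in every library (chr1:20806292-21176888, minus strand). It was at 28.8 and 28.62 FPKM in si-YTHDF3 libraries, against 26.81 and 27.08 FPKM in NC libraries. The groups did not overlap, but the log2 fold change was only 0.09, with a 95% interval of -0.21 to 0.39 and an adjusted p of 0.75. Its main transcript ENST00000400422 was at 18.18 and 8.79 FPKM in si-YTHDF3 libraries and at 15.63 and 15.79 FPKM in NC libraries. ENST00000634879, of 5325 bases against 5762, was at 1.17 and 10.77 FPKM in si-YTHDF3 libraries and at 0.231 and 1.45 FPKM in NC libraries. The second si-YTHDF3 library was thus low in 1 and high in the other, while the gene sum was level.

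EIF4E was at 15.97 and 13.9 FPKM in si-YTHDF3 libraries, against 15.82 and 17.29 FPKM in NC libraries (chr4:98871684-98930637, minus strand). The groups overlapped, and the log2 fold change of -0.14 had a 95% interval of -0.49 to 0.21 and an adjusted p of 0.654. Coding transcripts held 50.8% and 58.6% of the EIF4E level in si-YTHDF3 libraries and 59.2% and 54.7% in NC libraries. ENST00000507665, a retained-intron model of 1143 bases, was at 1.71 and 1.73 FPKM in si-YTHDF3 libraries, against 3.29 and 3.37 FPKM in NC libraries. Both knockdown libraries were below both NC libraries, with a log2 fold change of -0.67, an unadjusted p of 0.023 and an adjusted p of 0.567 (limma). The processed pseudogene EIF4EP2, whose sequence derives from EIF4E, was listed at 36.26 and 29.32 FPKM in si-YTHDF3 libraries and at 32.6 and 36.56 FPKM in NC libraries, above EIF4E itself in every library. The EIF4E level is therefore uncertain, because reads that match both could have been divided between them.

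The helicase subunit has a pair of paralogs, and neither differed beyond its spread. EIF4A1 was at 91.65 and 189.7 FPKM in si-YTHDF3 libraries, against 132.3 and 109.0 FPKM in NC libraries (chr17:7572706-7579005, plus strand). The lowest and the highest library were both si-YTHDF3, and the log2 fold change of 0.13 ± 0.34 (SE) had a 95% interval of -0.71 to 0.98 and an adjusted p of 0.876. Without the second si-YTHDF3 library it was -0.39. EIF4A2 was at 152.1 and 195.2 FPKM in si-YTHDF3 libraries, against 156.7 and 165.4 FPKM in NC libraries (chr3:186783305-186789900, plus strand). The groups overlapped, with a log2 fold change of 0.10, a 95% interval of -0.28 to 0.48 and an adjusted p of 0.788, and with -0.08 without the second si-YTHDF3 library. The ratio of EIF4A1 to EIF4A2 was 0.602 and 0.972 in si-YTHDF3 libraries, against 0.844 and 0.659 in NC libraries, and these overlapped (two-sided exact permutation p = 1.0, where 2 against 2 libraries cannot go below 0.333).

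In each helicase gene 1 retained-intron model differed widely between the si-YTHDF3 libraries. EIF4A1 ENST00000578324, of 1577 bases, was at 5.98 and 138.8 FPKM in si-YTHDF3 libraries and at 86.88 and 67.5 FPKM in NC libraries. Without it, the remaining EIF4A1 level was 85.67 and 50.89 FPKM in si-YTHDF3 libraries, against 45.38 and 41.5 FPKM in NC libraries, and the groups no longer overlapped, though the si-YTHDF3 libraries still lay apart, with the first now the higher. EIF4A2 ENST00000496382, of 460 bases, was at 0.142 and 43.37 FPKM in si-YTHDF3 libraries and at 0.163 and 0.41 FPKM in NC libraries. Without it, EIF4A2 was at 152.0 and 151.9 FPKM in si-YTHDF3 libraries, against 156.6 and 165.0 FPKM in NC libraries. A single library, the second si-YTHDF3 one, therefore set the EIF4A2 mean above that of NC. Both models were singled out after their values were seen for these sums.

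As listed, coding transcripts held the smaller part of the helicase level, except EIF4A1 in the first si-YTHDF3 library. For EIF4A1 the coding share was 69.4% and 16.3% in si-YTHDF3 libraries, against 25.1% and 22.7% in NC libraries. For EIF4A2 it was 1.06% and 1.43% in si-YTHDF3 libraries, against 1.95% and 1.5% in NC libraries. The most abundant EIF4A2 model, ENST00000425053, is annotated as a target of nonsense-mediated decay and was at 66.37 and 52.07 FPKM in si-YTHDF3 libraries, against 65.6 and 73.92 FPKM in NC libraries. By contrast, coding transcripts held over 90% of EIF4B, EIF4H and EIF4EBP1 in every library. The read-through gene SENP3-EIF4A1, which covers EIF4A1, was at 54.15 and 25.9 FPKM in si-YTHDF3 libraries and at 10.58 and 34.25 FPKM in NC libraries. With it and the EIF4A1 pseudogenes added, the EIF4A1 log2 fold change was 0.33. EIF4A1 levels are uncertain to that extent, since reads could have been divided between them.

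**Figure D4:**
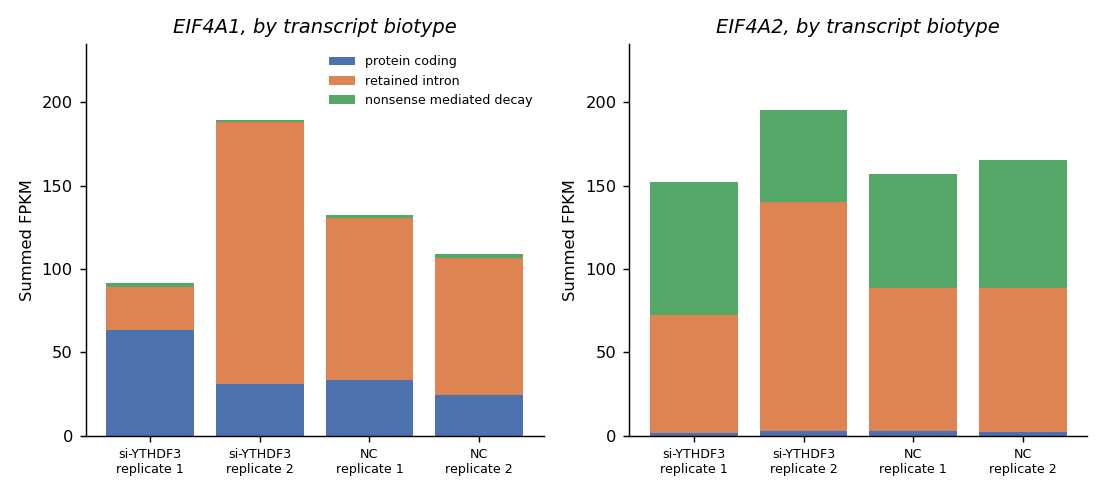
Summed FPKM (vertical axis) of EIF4A1 and EIF4A2 in the 2 si-YTHDF3 libraries (left) and the 2 NC libraries (right), stacked by the biotype of the transcripts. The EIF4A1 coding part is 63.64 FPKM in the first si-YTHDF3 library and 24.7 to 33.15 FPKM in the other 3, and coding transcripts make up under 2% of EIF4A2 in every library.

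EIF4B and EIF4H encode RNA-binding cofactors that stimulate the eIF4A helicase. EIF4B was at 334.4 and 348.0 FPKM in si-YTHDF3 libraries, against 283.2 and 305.7 FPKM in NC libraries (chr12:53006158-53042209, plus strand). Both knockdown libraries were above both NC libraries, with a log2 fold change of 0.21 ± 0.11 (SE), a 95% interval of -0.06 to 0.48 and an adjusted p of 0.41. ENST00000420463, of 1936 bases, was at 144.0 and 188.5 FPKM in si-YTHDF3 libraries, against 119.4 and 137.4 FPKM in NC libraries, while the libraries of the longer ENST00000262056, at 173.0 and 138.7 FPKM in si-YTHDF3 and 144.2 and 149.0 FPKM in NC, overlapped. The pseudogene EIF4BP6 was at 31.52 and 30.51 FPKM in si-YTHDF3 libraries, against 22.23 and 29.05 FPKM in NC libraries. EIF4H was at 162.7 and 174.9 FPKM in si-YTHDF3 libraries, against 177.0 and 170.2 FPKM in NC libraries (chr7:74174245-74197101, plus strand). The groups overlapped, and the log2 fold change of -0.04 had a 95% interval of -0.32 to 0.24. Its transcript shares were 0.773% apart between the groups, and 0.922% to 2.96% when 1 library was left out. The pseudogene EIF4HP1 was at 51.64 and 54.64 FPKM in si-YTHDF3 libraries and at 53.69 and 59.8 FPKM in NC libraries.

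The 4E-BPs bind eIF4E in competition with eIF4G, and neither of the 2 tested passed the adjusted threshold. EIF4EBP2 was at 17.02 and 15.31 FPKM in si-YTHDF3 libraries, against 20.71 and 21.34 FPKM in NC libraries, all in the single listed transcript ENST00000373218 of 7257 bases (chr10:70404379-70428618, plus strand). Both knockdown libraries were below both NC libraries. The log2 fold change of -0.36 ± 0.13 (SE) had a 95% interval of -0.69 to -0.03, an unadjusted p of 0.0355 and an adjusted p of 0.313 (limma), and it stood at rank 1639 of 14457 genes by p. EIF4EBP1 was at 49.25 and 60.05 FPKM in si-YTHDF3 libraries, against 57.95 and 50.21 FPKM in NC libraries. These overlapped, and the log2 fold change of 0.01 had a 95% interval of -0.38 to 0.40 and an adjusted p of 0.979. EIF4EBP3, the remaining family member, averaged 0.204 FPKM in si-YTHDF3 cells and 0.27 FPKM in NC cells and was not tested. The sum of the 4E-BP levels over that of EIF4E, with EIF4E pseudogenes left out, was 4.16 and 5.44 in si-YTHDF3 libraries, against 4.98 and 4.16 in NC libraries. Those pseudogenes were at 29.52 to 36.65 FPKM per library, above EIF4E itself, so the size of the ratio is uncertain. The ratio overlapped between the groups, with a difference of 0.228 and a two-sided exact permutation p of 1.0, where the smallest possible is 0.333.

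**Figure D5:**
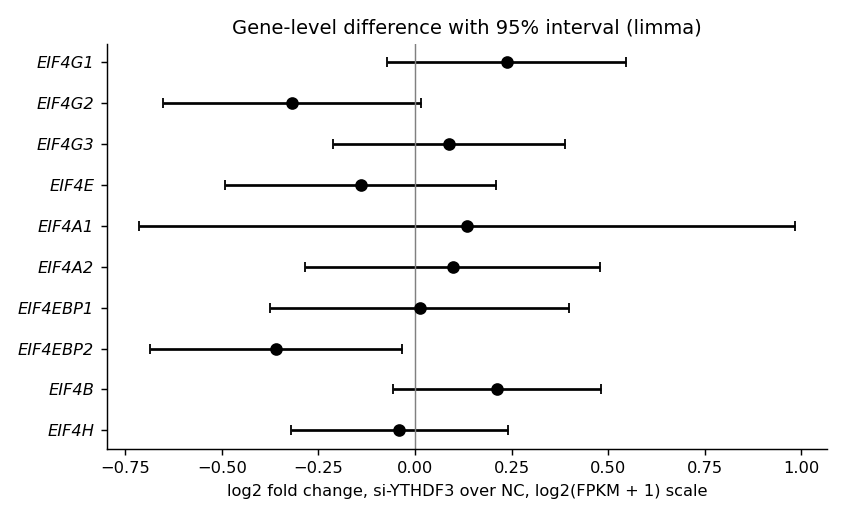
Log2 fold change of each gene (horizontal axis, si-YTHDF3 over NC, from log2 of FPKM + 1), with 95% intervals from limma over 2 libraries per group. The interval of EIF4EBP2, -0.69 to -0.03, is the only one that leaves out 0, and that of EIF4A1, -0.71 to 0.98, is the widest.

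Many mRNAs of the translation machinery begin with a C followed by a run of pyrimidines, the 5′ terminal oligopyrimidine tract through which mTORC1 controls their translation. The start windows of EIF4B and EIF4A2, with the tract in capitals, are shown with that of EIF4EBP2, where the capital marks the first transcribed base (RefSeq, GRCh38.p14, all on the plus strand).
EIF4B at chr12:53006436-53006465: cgtgattgcctcatccgggtCTTTTgcgtt
EIF4A2 at chr3:186783557-186783586: gggtggttgggcgccgctgtCTTTTCagtc
EIF4EBP2 at chr10:70404125-70404154: tctggctcccgccttcgcccGcttccggtc
The member starts examined were 13 starts of 9 of the 10 members, and no start of EIF4EBP1 was examined. A start was counted when its first base was C and at least the next 4 bases were C or T, read on the gene's strand at that position only. This was met by 2 of the 13 member starts, those of EIF4B and EIF4A2, and by 1429 of all 35116 RefSeq starts (4.07%). The 2 genes had log2 fold changes of 0.21 and 0.10 and did not pass the test. A match is a description of these letters at the RefSeq start. ENST00000420463 of EIF4B and ENST00000425053 of EIF4A2 were listed as starting at these first bases, 53006456 and 186783577. ENST00000262056 of EIF4B was listed as starting earlier, at 53006158. The single EIF4EBP2 transcript was listed as starting later, at 70404379 against the RefSeq base 70404145.

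Beyond the members, 35 further genes of cap-dependent initiation were listed, and 34 were tested. None passed the adjusted threshold, 1 was higher and 2 were lower at an unadjusted p under 0.05 (limma), where 8.29% of all genes were higher and 6.53% lower. Their libraries did not overlap between the groups for 15 of 34 (44.1%), near the 49.0% of all tested genes. Their median log2 fold change was -0.02, against 0.01 over all genes tested. MKNK2, a kinase that phosphorylates eIF4E when docked on eIF4G, was at 36.44 and 36.06 FPKM in si-YTHDF3 libraries, against 26.34 and 21.36 FPKM in NC libraries. It was above both NC libraries in both knockdown libraries, with a log2 fold change of 0.59 ± 0.15 (SE) and an adjusted p of 0.225. LARP4, a protein that binds poly(A) tails and the poly(A)-binding protein, was at 30.7 and 27.77 FPKM in si-YTHDF3 libraries, against 38.35 and 38.32 FPKM in NC libraries. Its log2 fold change was -0.38 and its adjusted p 0.287.

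By group, positive and negative log2 fold changes numbered 4 and 1 among the cap-binding relatives, 4 and 3 among the poly(A)-binding proteins and partners, 6 and 6 among the kinases and regulators, and 1 and 9 among the scanning and start-site factors, where 7516 and 6941 of all 14457 genes were positive and negative. The scanning and start-site factors had a median of -0.21, their libraries did not overlap for 5 of 10, near the background of 49.0%, and 1 had an unadjusted p under 0.05. This was DDX3X, a helicase of structured leaders, with 63.44 and 59.23 FPKM in si-YTHDF3 libraries and 77.6 and 75.52 FPKM in NC libraries (log2 fold change -0.32, adjusted p 0.317, limma). DHX29, a helicase that works on the scanning ribosome, was at 15.42 and 13.29 FPKM in si-YTHDF3 libraries, against 17.55 and 18.38 FPKM in NC libraries (log2 fold change -0.31). In both helicases the groups did not overlap. RPS6KB1, the S6 kinase that acts on EIF4B protein, was at 35.55 and 23.51 FPKM in si-YTHDF3 libraries, against 39.97 and 38.73 FPKM in NC libraries. Its log2 fold change was -0.43 (adjusted p 0.397, limma), with -0.14 without the second si-YTHDF3 library and -0.72 without the first. RHEB, the GTPase that activates mTORC1, was at 42.68 and 47.32 FPKM in si-YTHDF3 libraries, against 47.41 and 75.61 FPKM in NC libraries. Its log2 fold change was -0.41 (adjusted p 0.452, limma), with -0.08 without the second NC library and -0.74 without the first. PABPC1, the poly(A)-binding protein that contacts eIF4G, was chosen after its values were seen. It was at 1428 and 1451 FPKM in si-YTHDF3 libraries, against 1224 and 1243 FPKM in NC libraries, with a log2 fold change of 0.22 and an adjusted p of 0.341. MTOR itself was at 31.74 and 34.28 FPKM in si-YTHDF3 libraries, against 35.56 and 35.9 FPKM in NC libraries, also chosen after its values were seen.

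The m6A peak list analysed here held 99 differential peaks on chromosome 1, of which 94 were in plus-strand genes and 5 in minus-strand genes. EIF4G3 is the only 1 of the 10 members on chromosome 1, and no listed peak was annotated to it or overlapped its span. Absence from a list of differential peaks does not say whether EIF4G3 RNA carries m6A. EIF4G3 is on the minus strand, whose genes held only 5 of the 99 peaks. The other 9 members could not be examined for differential peaks. Of the 3 further initiation genes on chromosome 1, 1 had a listed peak, PABPC4, a cytoplasmic poly(A)-binding protein. The peak, at chr1:39570623-39573116, is annotated in the list as 3′ UTR. PABPC4 is on the minus strand at chr1:39560816-39576790, so the peak lies inside the gene and away from its outermost 3′ end. PABPC4 was at 104.8 and 113.7 FPKM in si-YTHDF3 libraries and at 99.05 and 110.9 FPKM in NC libraries, which overlap.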

How the data were processed

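HCT116 cells were transfected with siRNA, and fragmented input and m6A-precipitated RNA was sequenced on an Illumina NovaSeq. For the 4 input libraries the authors deposited FPKM of each Ensembl transcript on build GRCh38 (aligner and quantifier: not given in the sources used here). Also deposited were fold changes and p-values of their own comparison, which were not used, and a peak list with positions, blocks, enrichment and change columns, of which positions and annotations were used. Groups came from the sample titles. FPKM do not keep read numbers, so depth is unknown.

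FPKM of a gene's transcripts were summed, features averaging 1 FPKM or more over the libraries were kept, and log2(FPKM + 1) was tested with limma 3.58.1 under R 4.3.3 (lmFit, eBayes, trended by mean), with Benjamini-Hochberg adjustment over all features at 0.05. Bias of the log2 fold change was checked on data simulated with normal errors and variances from the fitted limma model. That check assumes the model, so it does not show how the test behaves where these libraries depart from it. The members, lists and tests were chosen with earlier results of these data known. All members were named, with at most 6 transcripts each that had at least 1 FPKM and 10% of the gene in a group mean, or that were at 0 throughout 1 group and reached 1 FPKM in each library of the other, and with the 6 further initiation genes of largest absolute log2 fold change. Other names are marked as chosen after values were seen. The alternatives were another pseudocount, filter or scaling, eBayes without a trend, a replicate block, leaving out each library, length weighting and coding transcripts only. A crossed block, and read-through and pseudogene FPKM added to their parent gene, were added after the data were seen. Start sequences are from RefSeq (GRCh38.p14). Figures were drawn with matplotlib 3.10.9.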

Additional observations from a re-analysis of the deposited data

How the results depend on the processing

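No member gene, member transcript or further initiation gene passed the adjusted threshold under any alternative run. At an unadjusted p under 0.05 the count of member genes was 1 in the values reported, 0 to 2 when 1 library was left out, 0 with the replicate block and 2 with quantile normalization or length weighting. That of member transcripts was 7, 3 of the 39 left with a filter at 5 FPKM, and 8 to 11 with 1 library left out, and that of further initiation genes was 3, 7 with length weighting, 5 over coding transcripts, 1 with the block, 6 with crossed numbers and 0 to 3 with 1 library left out. The replicate numbers did not pair the libraries (r = -0.11 between the groups' deviations over 14457 genes), and the block lifted the smallest adjusted p of a member gene to 0.543, against 0.313 without it. Because r was under -0.1, numbers were also crossed, which gave 0 adjusted and 3 unadjusted member genes. The smallest adjusted p of a member transcript (limma) was 0.055 with a filter at 5 FPKM, 0.0869 as reported and 0.29 without a filter. It was 0.554 with the replicate block and 0.6935 with crossed numbers.

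Several differences changed sign, and not all were small. As reported, the log2 fold change was -1.31 for ENST00000578324 and 2.47 for ENST00000496382. EIF4A1 was 0.13 as reported and ranged between -0.39 and 0.66 when 1 library was left out (-0.0036 without the second NC library), and was 0.62 over coding transcripts only. EIF4A2 was 0.10, between -0.0812 and 0.277 with 1 library left out, -0.0102 weighted by length and -0.25 over coding transcripts. EIF4EBP1 was 0.01, between -0.13 and 0.15 with 1 library left out (-0.09 without the second NC library), -0.0014 with median-of-ratios scaling, -0.005 with the upper quartile, -0.0109 with quantile normalization and -0.0083 over coding transcripts. EIF4H was between -0.0922 and 0.0111. The difference in the 4E-BP to EIF4E ratio was between -0.416 and 0.872 (-0.181 without the second NC library, 0.633 over coding transcripts only) and that in the EIF4A1 to EIF4A2 ratio between -0.149 and 0.22 (-0.0567 without the second NC library). The difference in the EIF4A1 to EIF4A2 ratio, 0.0356 as reported, was 0.127 with length weighting and 14.9 over coding transcripts only, which held 1.06% to 1.95% of EIF4A2 (exact permutation p = 0.333, the smallest possible). EIF4G1 was 0.24 as reported and 0.01 with length weighting, while its isoform share distance stayed between 51.8% and 56.7% with 1 library left out. With 1 library left out, the log2 fold changes that changed sign ranged between -3.48 and 0.85 for ENST00000578324, -0.142 and 0.0698 for ENST00000494445, -0.165 and 5.11 for ENST00000496382, -0.0789 and 0.237 for ENST00000262056, -0.163 and 0.146 for ENST00000338825, -0.771 and 0.199 for ENST00000400422, -0.145 and 0.0382 for ENST00000353999, and -0.129 and 0.0714 for ENST00000265753. The causes were not tested. With a lone library in a group, its spread is taken from the other group.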
